A study of Mus musculus with 6 samples.

Results

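The genes described here drive the copying of DNA in S phase and the separation of chromosomes in mitosis. They were chosen by name, 44 of the 54532 genes in the count table, and were kept as 14 S phase genes and 30 mitosis genes. RNA was sequenced from whole hearts of 3-month-old male C57BL/6 mice, 3 of each genotype. The α1r/rα2s/s hearts (resistant, mice 368, 369 and 370) carried the rodent Na/K-ATPase α1, which binds cardiotonic steroids weakly, and served as age-matched controls. The α1s/sα2s/s hearts (sensitive, mice 379, 380 and 381) carried an α1 with amino acid substitutions that make it bind these steroids tightly, and all 6 hearts shared the sensitive α2. The substitutions were carried in the mouse line and were not limited to cardiac muscle cells, and the labels name no treatment of these mice.

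Before S phase, the transcription factor E2F1 and cyclin E with its kinase CDK2 turn on replication genes, and the MCM2-7 helicase then opens the DNA while PCNA clamps the polymerase to it. Mitosis genes are switched on later, FOXM1 being among their activators, and their products build the spindle, the kinetochores and the condensed chromosomes, with cyclin B and CDK1 driving the entry into mitosis. Cardiac muscle cells largely stop dividing soon after birth, so in adult hearts such transcripts are generally known from few cells, among them endothelial cells, fibroblasts, immune cells and blood cells that pass through.

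The level of each gene was its count scaled to the TMM-normalized library size (CPM), and edgeR's quasi-likelihood test set the genotypes against each other over the 14866 genes with enough counts. All fold changes are log2 values of α1s/sα2s/s over α1r/rα2s/s hearts, so a negative value is lower in the sensitive hearts. A gene was called when its p, adjusted over all genes tested by the Benjamini-Hochberg method, was under 0.05. The hearts held 19309312 to 20470065 counts, the biological coefficient of variation was 11.1%, and mitochondrially encoded genes took 23.4 to 24.4% of the counts in α1r/rα2s/s and 25 to 26% in α1s/sα2s/s hearts. Counts do not show the substitutions, so the genotypes rest on the labels. The 8 cardiac muscle markers summed to 44950 to 57886 CPM in α1r/rα2s/s and 51437 to 56220 CPM in α1s/sα2s/s hearts. With 3 hearts against 3, an exact two-sided permutation test of 1 gene cannot give a p under 0.1.

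Most mitosis genes had lower values in the α1s/sα2s/s hearts, with a median log2 fold change of −0.42 over the 26 that could be tested, and 1 of them, Top2a, passed the test. Of these 26, 23 had a negative fold change. S phase genes had a median of −0.21, with a negative fold change in 12 of 14, and none was called by edgeR, while 4 had an unadjusted p under 0.05. DESeq2 called none of the 8 S phase genes to which it gave an adjusted p. Over all genes tested, 51.6% were lower in the sensitive hearts, the median was −0.01, and 1.44% of the genes were called in either direction and 0.659% as lower. At an unadjusted p under 0.05, 4 of 14 S phase genes and 9 of 26 mitosis genes were lower, beside 7.27% of all genes, and none was higher, beside 7.19%. No overlap between the genotypes, with every sensitive heart lower, was seen in 4 S phase and 8 tested mitosis genes, beside 9.98% of all genes, and the opposite in 1 mitosis gene, Bub1b, beside 10%. The mitosis genes counted as lower in these ways include Cdca8 and Aurka, which passed the low-count filter through the α1r/rα2s/s hearts. Such genes are more likely to read as lower, and the counts were not repeated without them. Among the 9876 genes with mean counts within the range of the S phase and mitosis genes tested (11.8 to 626), 57.3% were lower, the median was −0.04 and 0.8% were called. The difference between the S phase and mitosis medians was not tested.

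**Figure D1:**
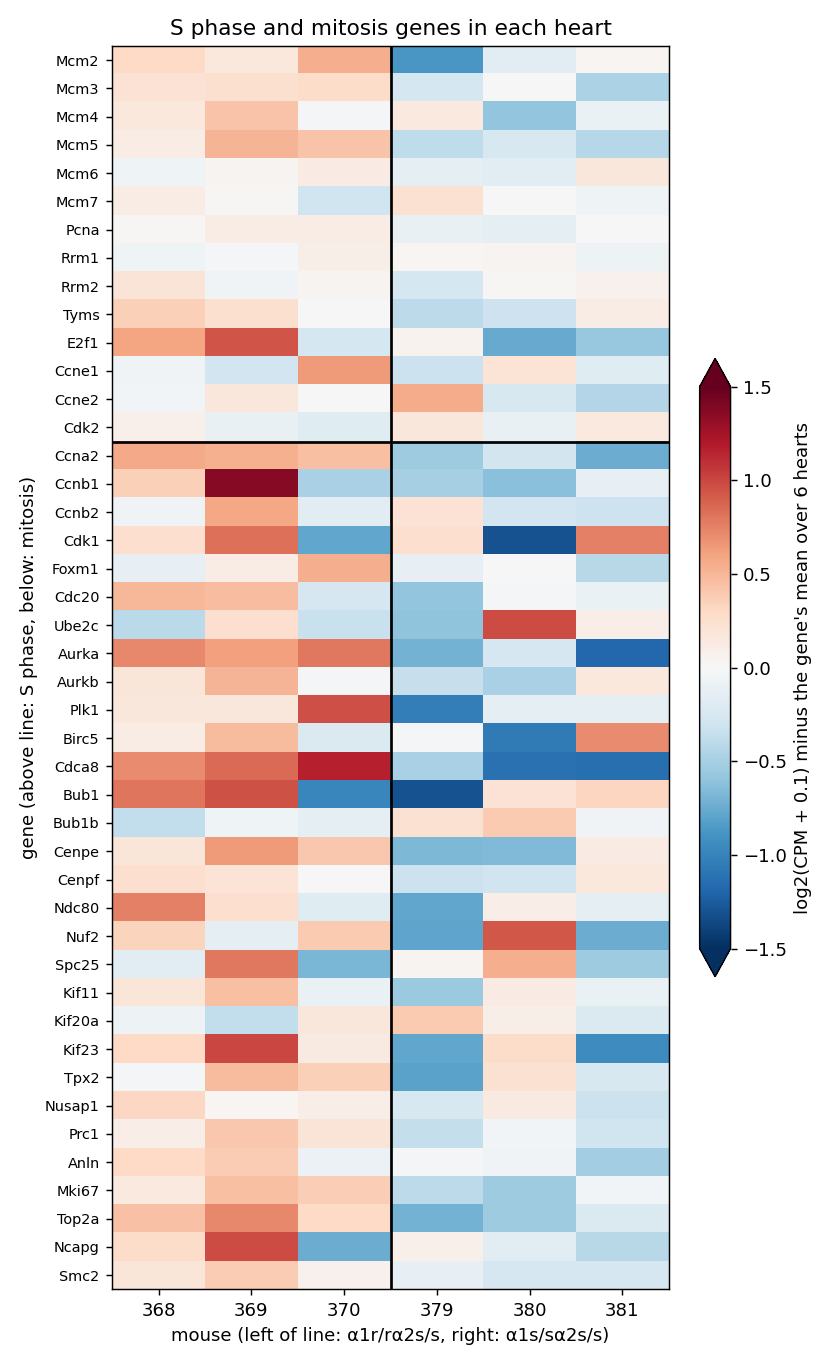
Level of each of the 44 genes in each heart, as log2(CPM + 0.1) minus the gene's mean over the 6 hearts (rows, S phase genes above the line and mitosis genes below it, columns, α1r/rα2s/s hearts left and α1s/sα2s/s hearts right, colours ending at 1.5 in each direction). Mouse 369 is the highest heart for 16 of the 30 mitosis genes and mouse 379 the lowest for 12.

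Levels were low, with 39 of the 40 tested genes under the median of all genes tested per kilobase of length, Pcna being the exception. Per kilobase of gene length, the S phase genes had a median level of 1.25 CPM and the mitosis genes one of 0.323 CPM, beside 3.14 CPM for all genes tested. Ccnb1, Bub1, Aurkb and Plk1 had too few counts to be tested, and they are given by their counts. The filter on low counts let 7 of the 40 tested genes through with at least 1 heart under 0.495 CPM. In 6 of these, Cdk1, Aurka, Birc5, Cdca8, Ndc80 and Nuf2, all α1r/rα2s/s hearts were above it and not all α1s/sα2s/s hearts. Among the 33 genes above it in every heart, 28 were lower with a median of −0.37, and 16 of 19 mitosis genes were lower with a median of −0.41. With no filter, all 44 genes had a value, and 11 of 14 S phase genes (median −0.21) and 27 of 30 mitosis genes (median −0.50) were lower.

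The promoters of both classes were read to see which sequence features they share, since the genes were chosen by name and not by sequence. RefSeq promoters on GRCm38.p6, from 250 bases before to 50 after a transcription start, were at hand for 37 of the 44 genes. Those of Aurkb, Ccna2, Ccne2, Foxm1, Kif20a, Mcm4 and Tpx2 were not used here. They were searched on both strands for the cell cycle homology region (CHR, TTTGAA or TTCAAA), an element known from late cell cycle genes, for the NF-Y box (CCAAT or ATTGG), and for the E2F site (TTTCCCGC, TTTCGCGC, TTTGCCGC or TTTGGCGC, or their reverse complements GCGGGAAA, GCGCGAAA, GCGGCAAA and GCGCCAAA). The promoters of 6 genes are printed 5′ to 3′ on the gene's strand, with every match in capitals. They are those of the only called gene, of the proliferation marker Mki67, of the mitosis genes with the most negative fold changes among those matched, of the S phase gene Mcm5, and of Mcm6, an S phase gene with E2F sites and a fold change near 0.
Top2a, chr11:99024140-99024439, minus strand: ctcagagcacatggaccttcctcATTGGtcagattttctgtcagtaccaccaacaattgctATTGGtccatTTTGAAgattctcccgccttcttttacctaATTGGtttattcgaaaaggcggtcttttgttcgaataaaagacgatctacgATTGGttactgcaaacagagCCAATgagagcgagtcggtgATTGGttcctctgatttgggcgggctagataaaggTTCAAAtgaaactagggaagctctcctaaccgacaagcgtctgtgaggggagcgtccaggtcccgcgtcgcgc
Mki67, chr7:135716330-135716629, minus strand: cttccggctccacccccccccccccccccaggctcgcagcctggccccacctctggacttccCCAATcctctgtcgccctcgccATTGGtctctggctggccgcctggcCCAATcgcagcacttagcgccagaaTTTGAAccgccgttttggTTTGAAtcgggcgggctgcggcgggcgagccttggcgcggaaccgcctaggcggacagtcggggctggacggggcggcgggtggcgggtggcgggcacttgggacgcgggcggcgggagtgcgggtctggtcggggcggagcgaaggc
Cdca8, chr4:124936868-124937167, minus strand: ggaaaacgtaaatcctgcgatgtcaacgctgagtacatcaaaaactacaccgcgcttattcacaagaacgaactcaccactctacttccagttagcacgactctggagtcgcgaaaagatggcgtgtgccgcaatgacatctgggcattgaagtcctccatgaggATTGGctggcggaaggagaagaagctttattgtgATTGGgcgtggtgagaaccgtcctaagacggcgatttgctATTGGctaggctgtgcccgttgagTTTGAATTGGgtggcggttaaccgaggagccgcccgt
Aurka, chr2:172370521-172370820, minus strand: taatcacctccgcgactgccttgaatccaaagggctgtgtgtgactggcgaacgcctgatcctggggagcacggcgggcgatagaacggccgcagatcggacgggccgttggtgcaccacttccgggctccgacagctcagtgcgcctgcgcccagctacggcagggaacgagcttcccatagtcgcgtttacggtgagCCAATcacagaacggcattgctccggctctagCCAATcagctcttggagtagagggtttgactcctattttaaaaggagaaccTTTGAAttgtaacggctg
Mcm5, chr8:75109259-75109558, plus strand: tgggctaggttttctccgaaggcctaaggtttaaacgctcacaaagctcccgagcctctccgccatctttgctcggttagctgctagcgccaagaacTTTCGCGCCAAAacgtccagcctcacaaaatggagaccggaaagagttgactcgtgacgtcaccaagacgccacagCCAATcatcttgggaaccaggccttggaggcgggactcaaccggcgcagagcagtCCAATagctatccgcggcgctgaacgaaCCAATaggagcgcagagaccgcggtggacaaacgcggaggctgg
Mcm6, chr1:128359656-128359955, minus strand: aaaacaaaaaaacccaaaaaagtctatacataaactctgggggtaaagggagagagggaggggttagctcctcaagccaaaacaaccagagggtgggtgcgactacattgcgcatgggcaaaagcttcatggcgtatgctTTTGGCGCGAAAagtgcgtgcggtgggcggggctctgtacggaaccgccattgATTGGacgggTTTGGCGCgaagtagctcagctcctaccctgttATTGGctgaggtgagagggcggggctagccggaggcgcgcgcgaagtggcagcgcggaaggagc

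In the Top2a promoter, TTTGAA lies 179 and TTCAAA 23 bases before the start, and the 6 NF-Y boxes lie 58 to 227 bases before it. In Cdca8, TTTGAA begins 13 bases after the start and runs into an ATTGG, so these 2 motifs overlap. Aurka has its TTTGAA at 32 bases after the start. Mki67 has TTTGAA at 98 and at 116 bases before the start. The Mcm5 and Mcm6 promoters hold no CHR, and each has 2 E2F matches that overlap one another on opposite strands, with another in Mcm6 at 47 bases before the start.

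The CHR was found in 19 of 25 mitosis genes (76.0%, 95% Wilson interval 56.6 to 88.5%) and in 1 of 12 S phase genes (8.33%, 1.49 to 35.4%), Mcm2. Over all 27025 genes of the promoter table the share was 20.2%. For the E2F site the classes stood the other way round, with 5 of 12 S phase genes (41.7%, 19.3 to 68.0%) and 2 of 25 mitosis genes (8%, 2.22 to 25%), Cdk1 and Ncapg, beside 2.61% of all genes. NF-Y boxes were common in both classes, in 9 of 12 S phase genes (75.0%) and 20 of 25 mitosis genes (80.0%), beside 41.1% of all genes. The median GC content was 57.7% in S phase promoters, 59.8% in mitosis promoters and 52.7% in all. Of the 25 CHR matches in mitosis genes, 19 began within 50 bases of the start, a match that lies in both Prc1 promoters being counted once. The share of matches this near the start was not read over all promoters. The windows of E2f1, Cdca8 and Mcm7 lie inside the coordinates given for the gene. On the minus strand, the E2f1 window ends at 154569676 and the gene at 154569892. E2f1 is counted as an S phase gene without a match of any motif. These shares are descriptions of sequence, and a match is not a measured binding site.

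**Figure D2:**
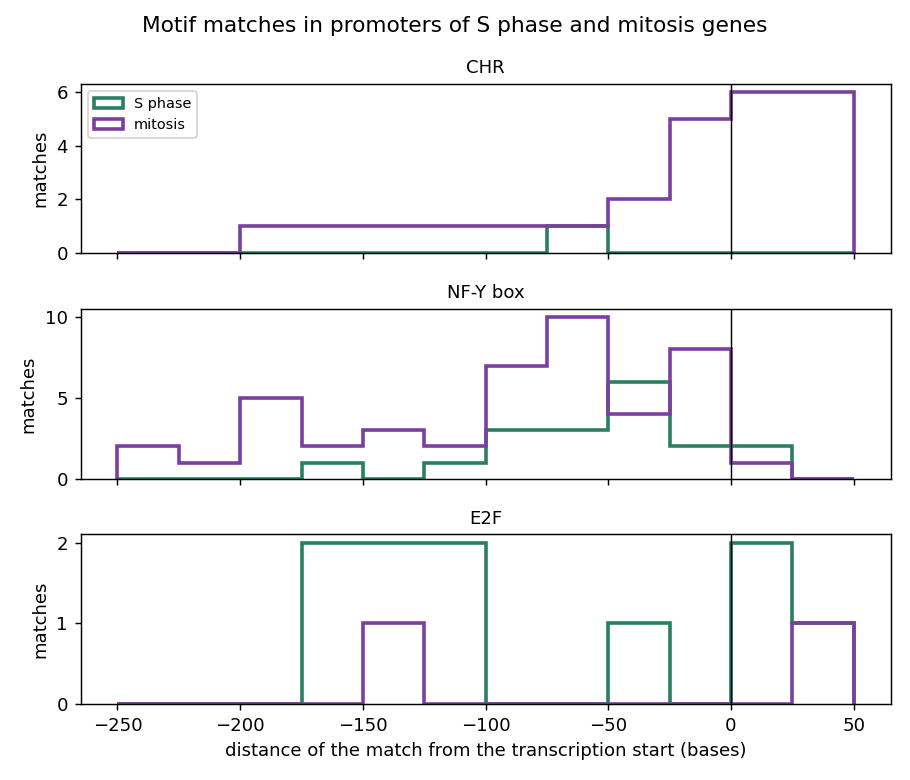
Number of motif matches (vertical axis) by distance of the match's first base from the transcription start in bases (horizontal axis, bins of 25 bases, start at the vertical line) in promoters of S phase and mitosis genes, one panel per motif. Of the CHR matches of mitosis genes, 19 of 25 lie within 50 bases of the start, and the searched window ends 50 bases after it. The same share over all promoters was not read.

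Chromosome structure genes included the only call. Top2a (ENSMUSG00000020914, GRCm38 chromosome 11 from 98992943 to 99024189) encodes DNA topoisomerase IIα, which untangles sister chromatids. Its level was 6.30, 7.64 and 5.68 CPM in the α1r/rα2s/s hearts of mice 368, 369 and 370, and 2.78, 3.16 and 3.94 CPM in the α1s/sα2s/s hearts of mice 379, 380 and 381. The genotypes did not overlap, and the lowest resistant heart lay above the highest sensitive one. Mean Top2a fell from 6.54 ± 1.0 in resistant to 3.29 ± 0.593 CPM in sensitive hearts (SD, n = 3). On the log2 scale this was −0.99 (SE 0.21, 95% interval −1.44 to −0.54, adjusted p = 0.0318 in edgeR). DESeq2 gave an adjusted p of 0.00725. The call held without mouse 370 or mouse 381 (adjusted p = 0.0438 and 0.0388) and was lost without mouse 368, 369, 379 or 380 (0.0924, 0.132, 0.104 and 0.0918). The log2 fold change then lay between −1.14 and −0.86.

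Mki67, the gene of the proliferation marker Ki-67 that coats mitotic chromosomes, was looked at after its values were seen, because it is called when no filter is used, where 1.04% of genes are called lower. It had 8.31, 10.2 and 9.70 CPM in α1r/rα2s/s and 5.66, 5.16 and 7.26 CPM in α1s/sα2s/s hearts, again without overlap. Its log2 fold change was −0.64 (SE 0.17, adjusted p = 0.0825 in edgeR), and with DESeq2 the adjusted p was 0.0583. Smc2 and Ncapg encode condensin subunits, which compact chromosomes. The log2 fold change was −0.43 (adjusted p = 0.29 in edgeR) for Smc2, without overlap between the genotypes, and −0.55 (adjusted p = 0.681) for Ncapg, which had 17, 29 and 7 counts against 14, 11 and 9. The 4 genes of this role had a median of −0.60.

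Mitotic kinases and the chromosomal passenger complex, which corrects spindle attachment, held the most negative fold changes of the tested genes, in Cdca8 and Aurka, at low counts. Cdca8, the gene of borealin, a subunit of that complex, had 17, 19 and 23 counts in α1r/rα2s/s hearts and 6, 3 and 3 in α1s/sα2s/s hearts. These were 0.958 ± 0.177 and 0.204 ± 0.0815 CPM (SD, n = 3). The fold change of −2.19 (SE 0.54, adjusted p = 0.0589 in edgeR) did not pass. Summed over hearts, 12 counts stood against 59, a ratio of 0.215 after library size, with a 95% counting interval of 0.105 to 0.404 that leaves out the spread between hearts. Every sensitive heart was below every resistant heart.

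Aurka encodes Aurora kinase A, which acts at the spindle poles. It had 26, 24 and 26 counts in α1r/rα2s/s and 8, 11 and 5 in α1s/sα2s/s hearts, or 1.23 ± 0.0803 and 0.412 ± 0.160 CPM (SD, n = 3). The resistant hearts were close together and all above the sensitive ones. The log2 fold change was −1.57 (SE 0.46, adjusted p = 0.124 in edgeR). Birc5, the gene of survivin, another subunit of the passenger complex, was near 0 at −0.12 (adjusted p = 0.946), and its hearts overlapped. Its partner kinase gene Aurkb, not tested, had 10, 13 and 8 counts against 6, 5 and 9. Plk1, the gene of polo-like kinase 1 and also not tested, had 10, 10 and 18 counts against 3, 7 and 7, without overlap.

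Mitotic cyclins and the genes that control them had a median of −0.35 over 6 tested genes. Ccna2, the gene of cyclin A2, which acts in S phase and G2, had 49, 48 and 43 counts in α1r/rα2s/s and 21, 24 and 17 in α1s/sα2s/s hearts, or 2.26 ± 0.0930 and 1.06 ± 0.191 CPM (SD, n = 3). This gave a log2 fold change of −1.09 (SE 0.33, adjusted p = 0.129 in edgeR), with no overlap between the genotypes. Ube2c, the gene of the ubiquitin-conjugating enzyme that works with the anaphase-promoting complex, went the other way with the largest positive value of the mitosis genes. It had 0.812, 1.34 and 0.854 CPM against 0.695, 2.26 and 1.19, a log2 fold change of 0.46 (SE 0.46, adjusted p = 0.693). Mouse 380 set this value, and without it the log2 fold change was −0.083. Ccnb1, the gene of cyclin B1, was not tested and had 13, 28 and 6 counts against 6, 5 and 8, with mouse 369 highest and mouse 370 within the sensitive range.

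Cdk1, the mitotic kinase that cyclin B activates, had 30, 46 and 13 counts against 29, 8 and 40, and its log2 fold change was −0.12 (adjusted p = 0.943 in edgeR). Its range within each genotype was wider than the difference between them. Values for Ccnb2, Foxm1 and Cdc20, the activator of the anaphase-promoting complex, lay between −0.53 and −0.30, with adjusted p from 0.549 to 0.816, and in all 3 the genotypes overlapped.

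Kinetochore and checkpoint genes, which attach chromosomes to the spindle and hold division until they are attached, had a median of −0.25. Cenpf, a large kinetochore protein, had the highest level per kilobase of the mitosis genes, at 1.74 CPM. It had 31.6, 30.5 and 26.6 CPM in α1r/rα2s/s and 21.2, 21.5 and 29.7 CPM in α1s/sα2s/s hearts, where mouse 381 overlapped the resistant hearts. The log2 fold change was −0.29 (SE 0.13, adjusted p = 0.304 in edgeR). Cenpe, a kinetochore motor, was at −0.81 (adjusted p = 0.286) without overlap.

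Bub1b, the gene of the checkpoint kinase BubR1, was the only one of the 44 with every sensitive heart above every resistant one. It had 1.58, 1.96 and 1.86 CPM in α1r/rα2s/s and 2.43, 2.74 and 1.97 CPM in α1s/sα2s/s hearts, where mouse 381 was just above the highest resistant heart. The log2 fold change was 0.40 (SE 0.30, adjusted p = 0.574 in edgeR). Ndc80, which binds microtubules at the kinetochore, had the lowest level per kilobase of the mitosis genes, 0.0954 CPM. Its counts were 22, 15 and 10 against 6, 12 and 10, and its log2 fold change −0.65 (SE 0.51, adjusted p = 0.604). The other subunits of its complex, Nuf2 and Spc25, had values of −0.21 and −0.04 with overlap between the genotypes. Bub1, another checkpoint kinase gene, was not tested and had 16, 18 and 3 counts against 2, 9 and 10.

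Spindle and cytokinesis genes had a median of −0.41 over 7 genes, 6 of them negative. Kif23, a motor of the midzone where the cell divides, had a log2 fold change of −0.94 (SE 0.37, adjusted p = 0.247 in edgeR), with 59, 98 and 50 counts against 26, 53 and 22. Mouse 380 lay within the resistant range. Prc1, which bundles midzone microtubules, had a value of −0.48 (adjusted p = 0.414) without overlap. Kif11, Tpx2, Nusap1 and Anln, which act in spindle assembly and furrowing, lay between −0.53 and −0.29 and overlapped. Kif20a, a further midzone motor, had 2.01, 1.62 and 2.41 CPM against 2.83, 2.26 and 1.82, and a log2 fold change of 0.20 (SE 0.31, adjusted p = 0.823).

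**Figure D3:**
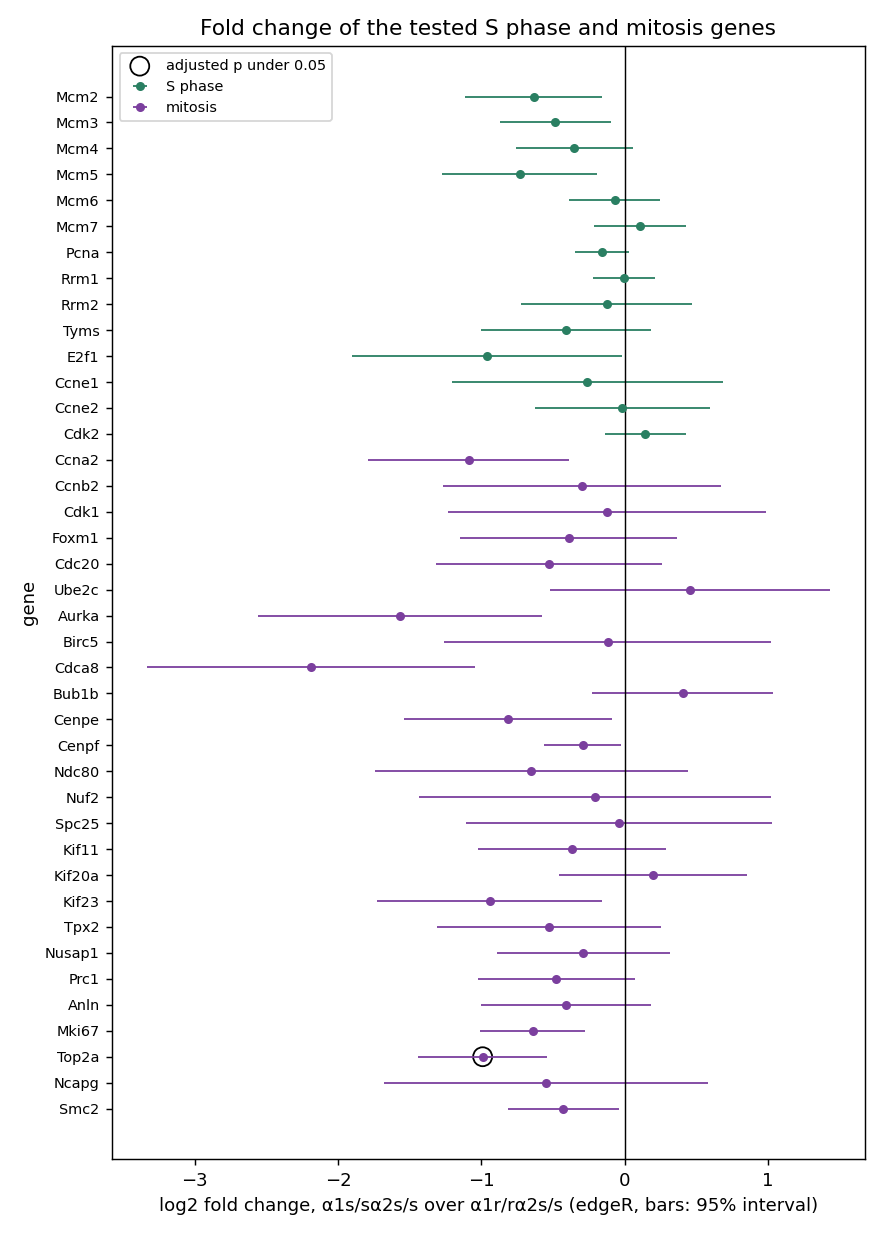
Log2 fold change of α1s/sα2s/s over α1r/rα2s/s hearts (horizontal axis) for the 40 tested genes (vertical axis, S phase genes in green, mitosis genes in purple, bars for 95% intervals, n = 3 hearts per genotype). Points of 35 genes lie left of 0, and the circled gene, Top2a, is the only call.

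In S phase, the helicase genes had a median of −0.42 over 6 genes, of which 3 had no overlap between the genotypes, Mcm2, Mcm3 and Mcm5. Mcm5 had 3.06, 4.06 and 3.82 CPM in α1r/rα2s/s and 2.13, 2.37 and 2.07 CPM in α1s/sα2s/s hearts. Its log2 fold change was −0.73 (SE 0.25, adjusted p = 0.184 in edgeR). Mcm2 had 7.16, 6.50 and 8.54 CPM against 3.13, 5.21 and 5.96, and a log2 fold change of −0.64 (SE 0.22, adjusted p = 0.192). Mouse 379 was the lowest heart by far for Mcm2. Values for Mcm3 and Mcm4 were −0.48 (adjusted p = 0.227) and −0.35 (adjusted p = 0.418). The 6 subunits form 1 ring in the cell, yet the other 2 were close to 0 here. Mcm6 had a value of −0.07 (95% interval −0.39 to 0.25). Mcm7 had 10.6, 9.89 and 7.94 CPM against 11.5, 9.73 and 9.39, a log2 fold change of 0.11 (SE 0.15, 95% interval −0.22 to 0.43, adjusted p = 0.798). Exons of Mcm7 overlap those of Ap4m1 and Cops6 on the opposite strand. Whether the subunits differed from one another was not tested.

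Pcna, the gene of the sliding clamp, had the highest level per kilobase of the 44 genes, at 13.0 CPM, and is also used in DNA repair outside S phase. It had 31.5, 33.6 and 33.6 CPM in α1r/rα2s/s and 28.8, 28.3 and 31.3 CPM in α1s/sα2s/s hearts. The genotypes did not overlap, though the difference was small, with a log2 fold change of −0.16 (SE 0.09, adjusted p = 0.425 in edgeR). Rrm1 and Rrm2 encode ribonucleotide reductase and Tyms thymidylate synthase, which supply DNA building blocks. Rrm1 had 17.2, 17.7 and 19.1 CPM against 18.4, 18.5 and 17.0, and its log2 fold change was −0.0038 (SE 0.10, 95% interval −0.22 to 0.21, adjusted p = 0.992). Rrm2 had a value of −0.13 (adjusted p = 0.881) and Tyms one of −0.41 (adjusted p = 0.537), both with overlap.

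Among the genes of S phase entry, E2f1 had the most negative value of the class. It had 34, 44 and 17 counts in α1r/rα2s/s and 22, 11 and 13 in α1s/sα2s/s hearts, or 1.53 ± 0.630 and 0.782 ± 0.273 CPM (SD, n = 3). Mouse 370 lay within the sensitive range, and the log2 fold change was −0.96 (SE 0.44, adjusted p = 0.337 in edgeR). Ccne1, the gene of cyclin E1, had the lowest level per kilobase of the class, 0.348 CPM. Its counts were 18, 15 and 29 against 14, 20 and 15, and its log2 fold change of −0.26 (SE 0.44, adjusted p = 0.839) became 0.10 without mouse 370. Ccne2, for cyclin E2, was at −0.02 (adjusted p = 0.987). Cdk2, their kinase, had 12.8, 11.3 and 10.7 CPM against 13.7, 11.3 and 13.5, and a log2 fold change of 0.14 (SE 0.13, adjusted p = 0.666).

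Summed over the 30 mitosis genes, the level was 91.0, 102 and 83.5 CPM in α1r/rα2s/s and 61.9, 68.6 and 73.8 CPM in α1s/sα2s/s hearts. The sum of each sensitive heart was below that of each resistant heart, and the mean was 26.2% lower (92.3 ± 9.43 against 68.1 ± 5.96 CPM, SD, n = 3). Cenpf alone made up a large share, and without it the mean was 29.9% lower. The 14 S phase genes summed to 118, 122 and 119 CPM against 110, 103 and 110 CPM, 9.96% lower (120 ± 1.88 against 108 ± 3.88 CPM, SD, n = 3). Without Pcna this was 9.79% lower. The 46 further mitosis genes read further below summed 7.21% lower (198 ± 4.02 against 184 ± 9.39 CPM, SD, n = 3). Their lowest resistant heart had 194.6 CPM and their highest sensitive heart 193.8 CPM. This sum leans on abundant genes, of which Pttg1 had the highest CPM and was higher in sensitive hearts (mean 46.4 against 54.4 CPM). Of the 33 further mitosis genes tested, 27 were lower, with a median log2 fold change of −0.42. The 35 further replication genes summed 2.33% lower (181 ± 3.57 against 176 ± 5.73 CPM, SD, n = 3), with overlap. Since the genes were chosen with results of these hearts known, these sums carry no p. In bulk RNA, fewer dividing cells and less RNA per dividing cell cannot be told apart.

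**Figure D4:**
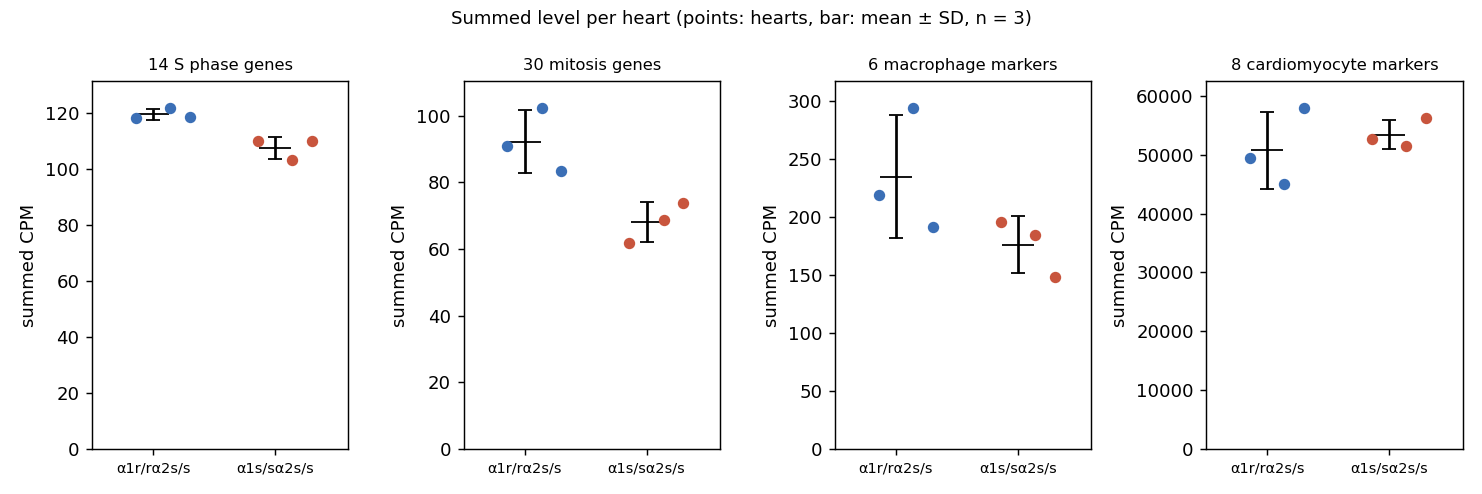
Summed CPM (vertical axes, from 0) of S phase genes, mitosis genes, macrophage markers and cardiac muscle markers in each heart (points, blue α1r/rα2s/s, red α1s/sα2s/s, cross and bar for mean ± SD, n = 3 per genotype). The S phase and mitosis sums do not overlap between genotypes, while the macrophage and cardiac muscle sums do. For macrophage markers the overlap is narrow (lowest α1r/rα2s/s heart 191 CPM, highest α1s/sα2s/s heart 195 CPM), with a mean 25% lower.

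Marker genes of other cell types were read beside these sums. Of the macrophage markers, 6 of 6 had a negative fold change, 3 at an unadjusted p under 0.05, and edgeR called none while DESeq2 called C1qa and Mrc1. Their sum was 191 to 294 CPM in α1r/rα2s/s and 148 to 195 CPM in α1s/sα2s/s hearts, 25% lower on average. Mouse 369, the highest heart for the mitosis genes, was also the highest for macrophage, endothelial and fibroblast markers. The resistant hearts had the same order in the mitosis and macrophage sums, and the sensitive hearts the reverse order. Mice 379, 380 and 381 had mitosis sums of 61.9, 68.6 and 73.8 CPM. Their macrophage sums were 195, 185 and 148 CPM. Of the neutrophil markers 2 of 6 could be tested, both were lower at an unadjusted p under 0.05 and not called by edgeR, the sum was 2.76 to 4.92 against 0.311 to 2.05 CPM, and Ly6g was at 0 in every heart. The B and T cell markers summed to 5.17 to 8.17 against 2.73 to 8.78 CPM, with 4 of 7 tested and all 4 lower, 1 of them at an unadjusted p under 0.05 and none called by edgeR. DESeq2 gave no neutrophil, B and T cell or thymocyte marker an adjusted p. Thymocyte markers were nearly absent, with 0.191 to 0.703 against 0.104 to 0.684 CPM, none of 6 tested, and Rag2 and Dntt at 0. The erythroid markers summed to 537 to 1273 against 401 to 3189 CPM, with mouse 380 highest and none of 5 tested lower, and neither edgeR nor DESeq2 called any. Endothelial markers were lower in 4 of 6 (881 to 1035 against 757 to 935 CPM) and fibroblast markers in 4 of 6 (765 to 865 against 761 to 847 CPM), and cardiac muscle markers in 1 of 8, with no call by edgeR in any of the 3 lists and 2, 2 and 0 genes lower at an unadjusted p under 0.05. DESeq2 called Col1a1 among them. The share of all genes that DESeq2 called lower is not given here, so its marker calls stand without a background. Over all genes tested, 7.27% were lower at an unadjusted p under 0.05. Without a filter on low counts, edgeR called the macrophage markers Csf1r, C1qa, C1qb and Mrc1, the neutrophil marker S100a8, Kdr and Col1a1 as lower. In that fit 294 of 28183 genes (1.04%) were called lower. It also called 5 erythroid markers (Hbb-bs, Hba-a1, Hbb-bt, Hba-a2 and Alas2), as higher in sensitive hearts. Mouse 380 had the highest level of each. Hbb-bs had 1856 CPM in mouse 380, 461 and 237 CPM in mice 379 and 381, and 303 to 733 CPM in resistant hearts. The part of these cell types in the lower mitosis genes was not tested.

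Other genes of the same processes, in lists of 35 replication and 46 mitosis genes (15 and 10 of which DESeq2 gave an adjusted p), were read from the same fit. None was called by edgeR or DESeq2. Of the 33 further mitosis genes tested, 27 were lower, with a median of −0.42. At an unadjusted p under 0.05, 5 were lower and 2 higher, beside 7.27% and 7.19% of all genes. Hmmr, a spindle assembly gene, had 24, 19 and 26 counts against 6, 9 and 7 and a log2 fold change of −1.55 (SE 0.47, adjusted p = 0.129). Sgo2a, a shugoshin that protects cohesion at centromeres, had 7.97, 5.11 and 7.28 CPM against 8.69, 9.84 and 11.1, a value of 0.54 (SE 0.18, adjusted p = 0.166). Both showed no overlap between the genotypes, in opposite directions. Another 13 mitosis genes and 4 replication genes had too few counts to be tested.

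Of the 31 further replication genes tested, 20 were lower with a median of −0.15. At an unadjusted p under 0.05 there were 3 lower and 2 higher, beside 7.27% and 7.19% of all genes. Prim1, the catalytic subunit of primase, had 33, 76 and 30 counts against 13, 27 and 13, a log2 fold change of −1.29 (SE 0.45, adjusted p = 0.184 in edgeR). Rpa2, of the single-strand binding protein RPA, had 9.12, 11.0 and 10.8 CPM against 14.1, 12.0 and 13.1, a value of 0.35 (SE 0.13, adjusted p = 0.231). Neither passed the threshold.

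A list of 20 cell cycle regulators held mostly repressors, namely pocket proteins, MuvB subunits, repressive E2F proteins and CDK inhibitors. It also held Fzr1, Btg2, the E2F partners Tfdp1 and Tfdp2, which serve activating E2F proteins too, and Mybl2, whose product activates mitosis genes. All were tested, and none was called by edgeR, while DESeq2 called 1, Tfdp2. The share of all genes that DESeq2 called higher is not given here. Of the 20 genes 8 were lower and 12 higher with a median of 0.03. At an unadjusted p under 0.05 there were 1 lower and 2 higher, beside 7.27% and 7.19% of all genes. Tfdp2, the gene of an E2F dimerization partner, had 86.9, 83.1 and 101 CPM in α1r/rα2s/s and 103, 111 and 115 CPM in α1s/sα2s/s hearts, without overlap. Its log2 fold change was 0.28 (SE 0.08, adjusted p = 0.124 in edgeR), and DESeq2 gave an adjusted p of 0.0467. E2f5, a repressive E2F, had 4.92, 4.54 and 4.72 CPM against 3.38, 3.21 and 3.68, a value of −0.46 (SE 0.21, adjusted p = 0.316), also without overlap.

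The fold changes were also read by promoter motif. With no filter on counts, 17 of the 19 mitosis genes with a CHR were lower with a median of −0.47, and 6 of the 6 mitosis genes without one were lower with a median of −0.49. Of the S phase genes without a CHR, 8 of 11 were lower with a median of −0.15, and Mcm2, the only one with it, was at −0.63. Mcm5 and Mcm6, whose promoters both hold E2F sites, had log2 fold changes of −0.73 and −0.07. No test was made of either.

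The counting leaves some values less certain. Exons of 14 of the 44 genes overlap those of another gene, 12 of them on the opposite strand, and in 8 the other gene has more counts. The strand setting of the counting is not given in the sources used here, so reads of such pairs could not be told apart without it. Ccna2 shares 510 bases with Exosc9, whose log2 fold change was −0.07, and Cdca8 shares 232 bases with 9930104L06Rik, at −0.03. Ncapg shares 944 bases with Lcorl, at −0.02, and Kif20a shares 1271 with Cdc23, at −0.09. Mcm7 shares 321 bases with Ap4m1, at 0.21, and 64 with Cops6, at 0.09. Ccne2 shares 609 bases with Ints8, at 0.16. Cdc20 shares 53 bases with Elovl1, at 0.12, and Prc1 shares 911 with Rccd1, at −0.21. Top2a overlaps only a small nucleolar RNA gene with 0 counts. Ccnb2 has a transcribed pseudogene, Ccnb2-ps, with 179 counts over the 6 hearts, and the pseudogenes of Ccnb1, Pcna and Tyms had at most 4 counts each.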

How the data were processed

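Total RNA of 6 whole hearts was sequenced on an Illumina NovaSeq system, and the company mapped and counted the reads. The authors deposited counts per gene without normalization, with gene lengths in bases. Their processing notes name fastp, STAR, featureCounts and the build mm10, and versions, annotation and strand setting are not given in the sources used here. Gene coordinates are those of the file and equal GENCODE M21 on GRCm38 for 43 of the 44 genes (Kif20a differs). A deposited table of the authors' own DESeq2 comparison (means, fold changes, errors, test statistics and p-values) was not used.

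Counts were analysed in R 4.3.3 with edgeR 4.0.16 (TMM, filterByExpr with a minimum count of 10 and a minimum total of 15, quasi-likelihood test, Benjamini-Hochberg adjustment, threshold 0.05, all 6 hearts, genotype as the only term). This replaces the study's DESeq2, here run as an alternative in version 1.42.0. The SE was the absolute log2 fold change over the root of F. Between hearts of one genotype the chi-square per gene was 6.86 to 13.2, above sampling noise, so each counted as 1 replicate. Totals of 19309312 to 20470065 counts leave a gene at 0.5 CPM with about 10 counts. The confidence level was 95%, and counting intervals cover counting error only. Figures were drawn with matplotlib 3.10.9 and Wilson intervals computed with scipy 1.17.1.

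The genes and the lists beside them were chosen with earlier results of these data known. Genes described heart by heart were the called ones, the 3 highest and 3 lowest fold changes of each class, and the highest and lowest levels per kilobase of each class. Mki67, Cdk1, Kif23, Ncapg and the 4 untested genes are also given heart by heart, and the first 4 of these were chosen after their values were seen. From the further lists they were the smallest p in each direction. A further planned check of single genes is not reported here. Alternatives were other scalings, filters, a robust prior, another threshold, leaving out globin and mitochondrial genes, and leaving out each heart.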

Additional observations from a re-analysis of the deposited data

How the results depend on the processing

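Without any filter on low counts edgeR called 618 genes in place of 214, and 2 mitosis genes, Mki67 and Top2a. An adjusted p under 0.1 gave 402 genes and 3 mitosis genes, and DESeq2 gave 403 genes. DESeq2 gave an adjusted p for only 12 of the 44 genes, 8 of S phase and 4 of mitosis, and called Top2a. Leaving out each heart in turn gave 80 to 158 genes, 0 to 1 mitosis genes, a median log2 fold change of −0.26 to −0.14 for S phase genes and −0.54 to −0.37 for mitosis genes. Top2a was no longer called without mouse 368, 369, 379 or 380. Values that changed sign were Rrm1 (0.00062 with DESeq2, 0.00023 without a filter, −0.031 to 0.045 without single hearts), Ccne1 (−0.45 to 0.10 without single hearts) and Ube2c (−0.083 to 0.78 without single hearts). With no filter, Cdkn1a was also called on the list of regulators. Prim1 (adjusted p = 0.0382 with no filter) and Tfdp2 (0.0333 with no filter, 0.0467 with DESeq2 and 0.0474 without mouse 370) passed in edgeR or DESeq2 only there. In the shorter promoter window, from 150 bases before the start, the shares over all genes were 12.8% for the CHR, 31.9% for the NF-Y box and 1.91% for the E2F site. There the NF-Y box was in 8 of 12 S phase genes (66.7%) and 19 of 25 mitosis genes (76.0%), while the counts for the CHR and the E2F site were those of the whole window in both classes. The cause of these shifts was not tested. Of the 44 genes, 35 of the 40 tested were lower under TMM, RLE and upper-quartile scaling and 34 under DESeq2. Depth limits the mitosis genes most, since their median count per heart was 29.1, beside 121 for S phase genes. No paired analysis was possible because the labels do not give the litter of each mouse.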
